A study of Mus musculus with 12 samples.

Results

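The cornified envelope genes of the epidermal differentiation complex were followed in mouse skin with and without ultraviolet B (UVB) light, in mice with a changed or a normal Foxp3 gene. The genes were chosen by name: every symbol that starts with Lce or Sprr, together with Flg, Flg2, Hrnr, Rptn, Tchh, Lor, Ivl and Crnn, with at least 10 counts over the 12 libraries. This gave 45 genes of the 53465 gene identifiers counted. A further gene by name, the pseudogene Sprr2c-ps, had no count. All 45 lie on chromosome 3 between positions 92080271 and 93449077 of the GRCm38 build. They were 14 Lce1 genes, 6 Lce3 genes, Lce6a, 2 Sprr1 genes, 12 Sprr2 genes, Sprr3, Sprr4, Lor, Ivl and 6 genes of the S100-fused type (Flg, Flg2, Hrnr, Rptn, Tchh and Crnn).

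Total RNA of skin was sequenced in bulk, with 3 libraries in each of 4 groups. Foxp3 encodes the transcription factor of regulatory T cells. The altered genotype is written Foxp3-E2 in the sample labels, Foxp3-DE2 in the protocol and Foxp3dExon2 in the series title, and is called DE2 here. The groups were irradiated DE2, irradiated Foxp3-WT (WT), untreated DE2 and untreated WT skin. The irradiated site was a shaved flank patch of 3 by 2 cm given UVB 6 times. The labels state 200 mJ/cm2 and the protocol states 100 mJ/cm2, which could not be settled here. The sources used here give no strain, age, sex or number of animals, and they do not say which library came from which animal or whether untreated skin was shaved. By its title, the series asks about inflamed skin in mice with the altered gene.

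Total counts were 2809142 to 4741726 per library. Foxp3 itself had 8 counts in irradiated DE2 libraries and 0 in the other groups, and counts per gene do not show exon 2. The 3 untreated DE2 libraries stood apart on the first principal component, at 84.1 to 115.0 against -64.3 to -8.38 in the other 9. They held 126.2 to 338.8 CPM (a gene's counts set to the same library total, with TMM factors for composition) summed over 19 genes of the hair cortex and cuticle, against at least 4865 in each of the other 9 libraries. Skeletal muscle genes took 11.9% of their counts on average, against 3.72% in irradiated DE2, 4.46% in irradiated WT and 4.60% in untreated WT. Marker genes of the epidermis were present in every group: Krt1, Krt10 and 9 further genes of the spinous and granular layers summed to at least 4306 CPM in each library. Of 8 markers of forestomach and oral epithelium, which can also make these proteins, Krt13, Muc5ac, Gkn1 and Tff1 were at 0 in both irradiated groups. In each of these groups 3 had counts, and Krt36 and Krt84 had counts in both. The 8 summed to 46.5 to 72.9 CPM in irradiated DE2, 72.3 to 155.6 in irradiated WT, 4.45 to 9.06 in untreated DE2 and 96.2 to 119.9 in untreated WT. Like that of the hair cortex and cuticle genes, this sum was lowest in untreated DE2, and which cells its counts came from was not tested.

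The cornified envelope is the protein shell that replaces the plasma membrane of a keratinocyte as it dies at the skin surface. Transglutaminases join its building blocks, among them loricrin (Lor), involucrin (Ivl), the small proline-rich proteins (Sprr) and the late cornified envelope proteins (Lce), into an insoluble layer that is coated with lipids. Proteins of the S100-fused type are long repeat proteins. Profilaggrin (Flg) is cut into filaggrin, which packs keratin filaments and is later broken down, and trichohyalin (Tchh) hardens the inner root sheath of the hair follicle. In human skin, LCE1 genes belong to the normal outer epidermis, while LCE3 and SPRR2 genes are known for their expression in wounded and psoriatic epidermis.

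At the irradiated site 5 Sprr2 genes, 2 Lce3 genes and Sprr1b were higher in DE2 than in WT, while 4 Lce1 genes, Lor and Flg2 were lower. Relative to basal keratinocyte genes, a scaling that moved the median log2 fold change of all genes in this comparison to -2.10, the 6 Lce3 genes had no common direction. Of 42 members that could be tested, 8 were higher and 6 lower in irradiated DE2 than in irradiated WT skin (edgeR's quasi-likelihood test, p-values adjusted by Benjamini and Hochberg's method, threshold 0.05). Over all 15126 genes tested, 2.96% passed in this comparison, 2.35% higher and 0.608% lower. The 8 higher members were Sprr2b, Sprr2d, Sprr2a3, Lce3b, Sprr2e, Sprr2g, Lce3a and Sprr1b. The 6 lower ones were Lce1m, Flg2, Lce1l, Lor, Lce1c and Lce1a2. The sum over all 45 genes took 1.09% ± 0.0646 of counts in irradiated DE2 and 1.13% ± 0.135 in irradiated WT (SD, n = 3 each). In bulk RNA, fewer cells of a type and less RNA per cell cannot be told apart.

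**Figure D1:**
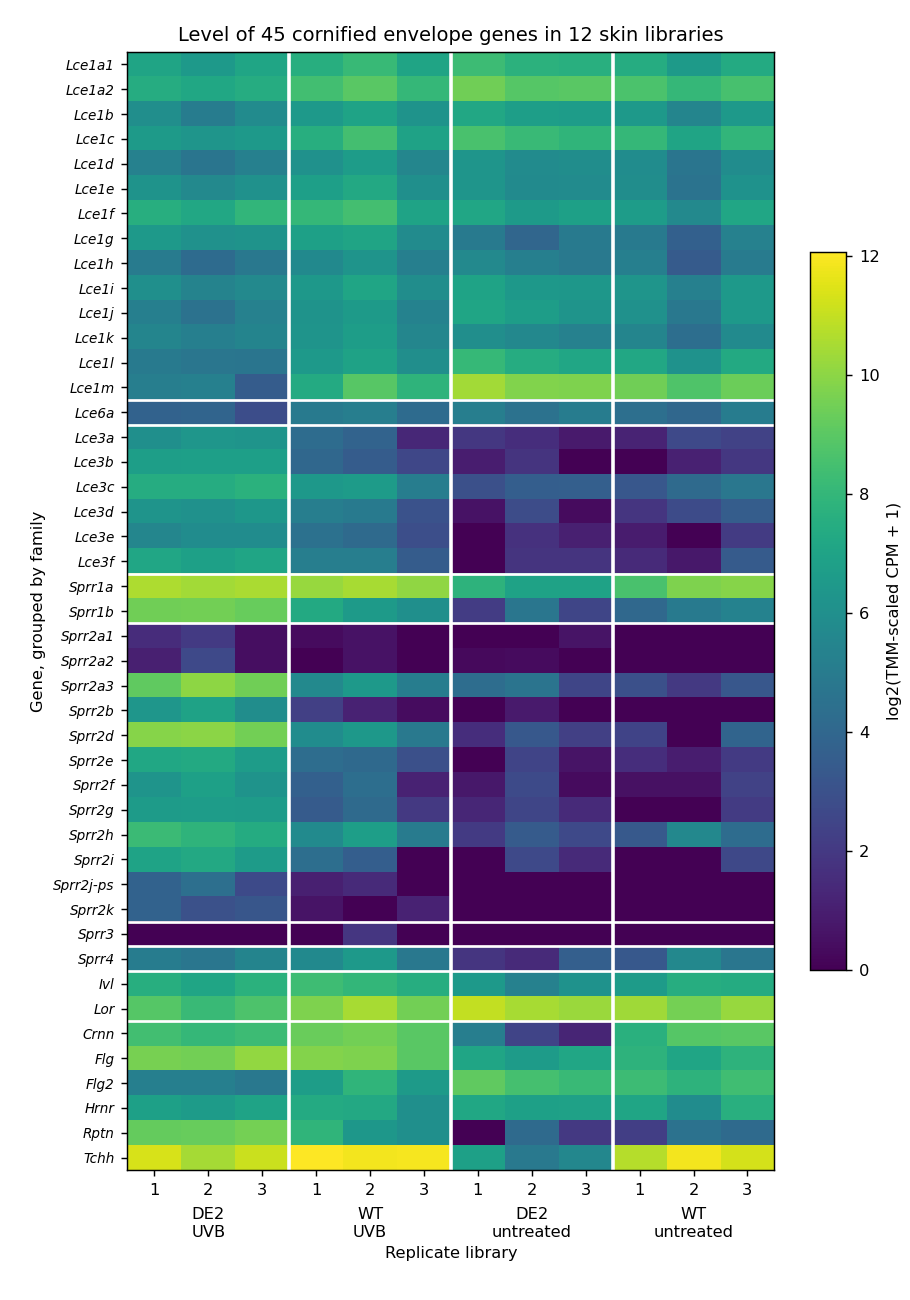
Level of each of the 45 genes (rows, grouped by family) in the 12 libraries (columns, grouped by genotype and site), as log2 of TMM-scaled CPM plus 1. In irradiated DE2 libraries the Lce3, Sprr1b and Sprr2 rows are bright and the Lce1m, Lce1l and Flg2 rows are dark, while Tchh and Crnn are dark in the untreated DE2 libraries alone.

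Promoters of members that moved in opposite directions are shown to let their letters be compared. Each is the 250 bases before the RefSeq start site (GRCm38.p6), 5′ to 3′ on the gene's strand, and capitals mark the AP-1 motif TGANTCA. Sprr2b (chr3:92316455-92316704, plus strand), Sprr2d (chr3:92338890-92339139, plus strand) and Sprr2a3 (chr3:92285054-92285303, plus strand) are Sprr2 genes that were higher in irradiated DE2. Lce3b (chr3:92932729-92932978, plus strand) was also higher, and Lce1m (chr3:93019062-93019311, minus strand) and Lor (chr3:92083143-92083392, minus strand) were lower.
Sprr2b: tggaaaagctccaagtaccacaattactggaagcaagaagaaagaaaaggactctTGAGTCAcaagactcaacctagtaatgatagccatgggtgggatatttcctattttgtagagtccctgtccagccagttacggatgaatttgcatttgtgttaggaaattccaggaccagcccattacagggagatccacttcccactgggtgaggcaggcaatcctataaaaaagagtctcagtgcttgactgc
Sprr2d: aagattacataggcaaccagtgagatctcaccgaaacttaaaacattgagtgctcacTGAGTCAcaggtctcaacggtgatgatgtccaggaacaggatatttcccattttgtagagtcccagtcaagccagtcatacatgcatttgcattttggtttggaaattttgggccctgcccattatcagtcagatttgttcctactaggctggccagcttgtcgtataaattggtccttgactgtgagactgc
Sprr2a3: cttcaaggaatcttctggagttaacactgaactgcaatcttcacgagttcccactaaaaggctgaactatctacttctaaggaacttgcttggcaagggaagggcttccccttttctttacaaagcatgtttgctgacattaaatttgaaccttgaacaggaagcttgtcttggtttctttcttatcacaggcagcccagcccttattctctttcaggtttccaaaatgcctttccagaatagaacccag
Lce3b: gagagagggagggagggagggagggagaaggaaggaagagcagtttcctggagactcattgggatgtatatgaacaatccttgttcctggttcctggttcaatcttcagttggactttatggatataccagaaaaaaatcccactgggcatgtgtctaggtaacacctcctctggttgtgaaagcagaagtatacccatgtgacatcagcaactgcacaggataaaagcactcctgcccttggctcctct
Lce1m: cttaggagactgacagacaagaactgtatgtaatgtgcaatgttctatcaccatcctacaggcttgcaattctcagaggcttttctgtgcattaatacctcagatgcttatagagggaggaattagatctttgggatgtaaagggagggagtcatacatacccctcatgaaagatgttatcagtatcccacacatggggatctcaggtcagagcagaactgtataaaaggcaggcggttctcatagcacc
Lor: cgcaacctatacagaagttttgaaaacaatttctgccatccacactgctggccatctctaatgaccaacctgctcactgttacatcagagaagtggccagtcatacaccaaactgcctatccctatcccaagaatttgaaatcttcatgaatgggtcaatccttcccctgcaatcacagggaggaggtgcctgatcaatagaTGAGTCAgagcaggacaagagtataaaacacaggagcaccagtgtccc

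Windows of 300 bases, from 250 before to 50 after the start, were found for 42 of the 45 members and not for Lce1f, Sprr2g and Sprr2j-ps. The AP-1 motif, searched as TGANTCA, which reads the same way on both strands, was in 7 of 10 Sprr2 windows, in 0 of 13 Lce1 windows and in 0 of 6 Lce3 windows. It was in 7.79% of all 32544 promoter windows and in 15 of the 42 member windows. Repeated sequences were counted once among all windows, but the identical windows of Sprr2a1 and Sprr2a2 were counted separately among members. Those of Sprr2d and Sprr2e were the same at 88.0% of positions, so the Sprr2 windows are not independent of each other. In Sprr2b, Sprr2d, Sprr2e, Sprr2f, Sprr2h, Sprr2i and Sprr2k a copy was centred at -195 to -190 relative to the start, and Sprr2k had another at -179. The windows of Sprr2a1, Sprr2a2 and Sprr2a3 held none, although Sprr2a3 was among the members that were higher. The RefSeq start used for Sprr2a3 lies before 92285417, where its gene annotation starts, and a window set at that position was not searched. Outside the Sprr2 family the motif was in the windows of Lor, Sprr1a, Sprr1b, Ivl, Crnn, Flg2, Flg and Rptn, of which Sprr1b was higher and Lor and Flg2 lower in irradiated DE2. The NRF2 motif TGACNNNGC, which can overlap the AP-1 motif and does so in Sprr1a, was in 3 of 6 Lce3 windows (Lce3c, Lce3d and Lce3e) and in 12.4% of all windows. The C/EBP motif TTNNGCAA was in 5 of the 42 member windows and in 10.8% of all windows. The STAT motif TTCNNNGAA was in 3 member windows and in 8.33% of all, and the KLF motif CCGCCC in 1 (Sprr2h) and 35.9%. Each motif was searched on both strands, and a match of letters does not show that a factor binds there.

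The Sprr2 genes encode small proline-rich proteins that bridge other envelope proteins. Summed over the family, they were at 2458 ± 481 CPM in irradiated DE2, 229 ± 123 in irradiated WT, 36.7 ± 24.9 in untreated DE2 and 44.1 ± 18.6 in untreated WT (SD, n = 3 each). All 10 tested Sprr2 genes had a positive log2 fold change between irradiated DE2 and irradiated WT skin, with a median of 3.65 against -0.03 over all genes, and 5 passed. In all 10 the 3 DE2 libraries lay above the 3 WT libraries, which held for 11.9% of all genes tested. When libraries were scaled to basal keratinocyte genes, 9 of 10 were positive and 3 passed, and the median over all genes was then -2.10.

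**Figure D2:**
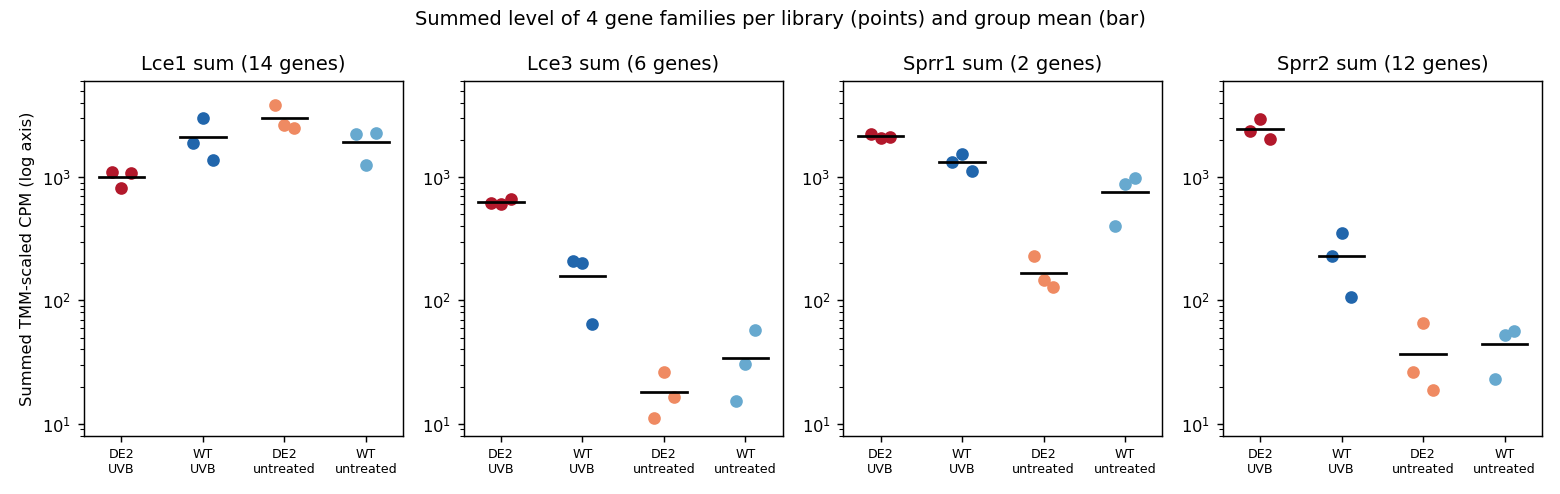
Summed TMM-scaled CPM of the Lce1, Lce3, Sprr1 and Sprr2 genes (log axis), 1 point per library with the group mean as a bar, for 3 libraries in each of 4 groups. With this scaling irradiated DE2 libraries lie above all others for Lce3, Sprr1 and Sprr2 and below all others for Lce1.

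Sprr2b (ENSMUSG00000050092, chromosome 3, 92316620 to 92318085, plus strand) was at 80.5, 125 and 59.05 CPM in irradiated DE2, 3.83, 1.23 and 0.304 in irradiated WT, 0, 0.849 and 0 in untreated DE2 and 0 in every untreated WT library. All 3 irradiated DE2 libraries lay above every other library, and the log2 fold change over irradiated WT was 5.58 ± 0.68 (edgeR, adjusted p = 0.00121). Sprr2d, at 949, 1008 and 719 CPM in irradiated DE2, 58.1, 84.4 and 28.9 in irradiated WT, 1.95, 9.05 and 3.89 in untreated DE2 and 4.35, 0 and 13.97 in untreated WT, was the most abundant Sprr2 gene of irradiated DE2 skin, also per kilobase of exon. Its log2 fold change between irradiated DE2 and irradiated WT was 3.96 ± 0.71 (edgeR, adjusted p = 0.00955). Sprr2a3 was at 563, 1050 and 698 CPM in irradiated DE2, 49.9, 91.5 and 34.1 in irradiated WT, 18.8, 24.3 and 4.72 in untreated DE2 and 6.75, 3.03 and 8.55 in untreated WT. The groups did not overlap at the irradiated site, with a log2 fold change of 3.72 ± 0.51 (edgeR, adjusted p = 0.00208). Sprr2a3 shares 36.2% of the 100-base windows of its transcript with other genes, so its count is uncertain. Sprr2e was at 144, 162 and 99.9 CPM in irradiated DE2, 18.9, 16.5 and 6.69 in irradiated WT, 0, 4.53 and 0.556 in untreated DE2 and 1.96, 0.932 and 3.13 in untreated WT. Its fold change on the log2 scale was 3.26 ± 0.59 (edgeR, adjusted p = 0.0092).

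Sprr2g was at 98.2, 99.5 and 96.96 CPM in irradiated DE2, 10.1, 17.2 and 3.04 in irradiated WT, 1.46, 4.81 and 1.67 in untreated DE2 and 0, 0 and 3.33 in untreated WT. The 3 irradiated DE2 libraries were nearly equal, and the gene, annotated as a polymorphic pseudogene, was higher there by 3.26 ± 0.73 on the log2 scale (edgeR, adjusted p = 0.0298). Sprr2h was at 296, 229 and 174 CPM in irradiated DE2, 53.1, 109 and 31.6 in irradiated WT, 3.17, 10.2 and 5.28 in untreated DE2 and 9.36, 48.2 and 18.6 in untreated WT. It did not pass between genotypes at the irradiated site, with 1.85 ± 0.54 on the log2 scale (edgeR, adjusted p = 0.0895), although no irradiated WT library reached the lowest DE2 library. Of the remaining tested Sprr2 genes, Sprr2f, Sprr2i, Sprr2k and Sprr2j-ps had log2 fold changes of 2.99 to 3.99 with adjusted p-values of 0.0758 to 0.1 (edgeR). Sprr2j-ps had 146 counts and Sprr2k 100 counts over irradiated DE2 libraries, and both had 0 in untreated skin of either genotype. Sprr2a1 and Sprr2a2, whose annotated exons overlap and whose windows before the start are identical, were below the filter on low counts, with 26 and 31 counts in all. Sprr2a1 had 7, 13 and 1 counts in irradiated DE2 libraries and 1, 2 and 0 in irradiated WT libraries, so the groups overlapped. Pooled, these were 21 and 3 counts, a ratio of 7.30 with a 95% counting interval of 2.18 to 38.2. This interval leaves out the spread between libraries. Sprr2a1 shares 92.5% of its 100-base windows with other genes, so its count is uncertain.

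Within DE2 mice, all 10 tested Sprr2 genes were higher at the irradiated than at the untreated site. Of the 42 members 25 were higher and 11 lower in this comparison, against a background of 27.8% of all genes called, 14.4% higher and 13.4% lower. The groups did not overlap for 26 higher and 12 lower members, which held for 22.0% and 19.4% of all genes. The comparison uses the same irradiated DE2 libraries as the one above. Sprr2d was higher by 7.5 ± 0.87 and Sprr2e by 6.35 ± 0.74 on the log2 scale (edgeR, adjusted p = 4.48e-05 and 3.65e-05). Sprr2b had 974 counts in irradiated and 3 in untreated DE2 libraries, a ratio of 346 with a 95% counting interval of 118 to 1680. Against a floor of 3 counts over the untreated group, Sprr2j-ps was at least 51.8-fold and Sprr2k at least 35.5-fold higher. The family's median log2 fold change was 6.06, or 5.64 with the genes at 0 set at their bound.

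In WT mice 1 member passed between the irradiated and the untreated site, Flg, and the background was 0.0198% of all genes, 3 in number. At an unadjusted p under 0.05, 25 members were higher and 2 lower by edgeR, against 2.41% and 2.14% of all genes. After adjustment DESeq2 called 4 higher, against 0.0634% of all genes, and limma voom 1, against 0.0198%. In 16 members every irradiated library lay above every untreated one, and in 0 below, which held for 4.85% and 5.25% of all genes. The Sprr2 genes had a median log2 fold change of 3.16, or 2.72 with bounds, and none passed, while 9 had an unadjusted p under 0.05 and DESeq2 called 1. Of the family Sprr2a3 was nearest to the threshold, at 3.25 ± 0.54 on the log2 scale (edgeR, adjusted p = 0.0877). Sprr2b, with 20 counts in irradiated and 0 in untreated WT libraries, was at least 8.29-fold higher.

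The Lce3 genes encode late envelope proteins of the group that in human skin marks barrier repair. They summed to 630 ± 33.2 CPM in irradiated DE2, 158 ± 82.1 in irradiated WT, 18.0 ± 7.68 in untreated DE2 and 34.4 ± 21.4 in untreated WT (SD, n = 3 each). All 6 had a positive log2 fold change between irradiated DE2 and irradiated WT skin, with a median of 2.05, but relative to basal keratinocyte genes 3 were positive and 3 negative and none passed. Their median was then 0.02, which was 2.12 above the median of all genes. With TMM factors no WT library reached the lowest DE2 library for any of the 6. The summed basal keratinocyte list was itself at 16800 to 22190 CPM in irradiated DE2 and 4160 to 4998 CPM in irradiated WT libraries. The scaling rests on the summed counts of 11 genes, so the most abundant of them weigh most. At the irradiated site 4 of the 11 were higher and 1 lower in DE2, with a median log2 fold change of 0.76.

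Lce3b (ENSMUSG00000042031, chromosome 3, 92932979 to 92934097, plus strand) was at 109, 112 and 113 CPM in irradiated DE2, 15.3, 10.3 and 4.87 in irradiated WT, 0.975, 2.55 and 0 in untreated DE2 and 0, 1.17 and 2.92 in untreated WT. Its irradiated DE2 values were closely spaced, and its log2 fold change over irradiated WT was 3.44 ± 0.61 (edgeR, adjusted p = 0.00781). Lce3a was at 64.5, 79.9 and 75.5 CPM in irradiated DE2, 18.1, 13.3 and 1.52 in irradiated WT, 2.92, 1.98 and 0.834 in untreated DE2 and 1.31, 5.36 and 4.17 in untreated WT. It was the other Lce3 gene that passed, at 2.73 ± 0.60 on the log2 scale (edgeR, adjusted p = 0.0244). Lce3c, the most abundant member of the group per kilobase in every group of libraries, was at 178, 178 and 207 CPM in irradiated DE2, 84.4, 97.4 and 33.5 in irradiated WT, 6.82, 11.04 and 11.7 in untreated DE2 and 8.71, 17.2 and 26.3 in untreated WT. It missed the threshold between genotypes at the irradiated site with 1.38 ± 0.38 on the log2 scale (edgeR, adjusted p = 0.0633).

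Lce3d was at 75.6, 67.3 and 81.7 CPM in irradiated DE2, 35.3, 29.5 and 7.298 in irradiated WT, 0.487, 5.94 and 0.278 in untreated DE2 and 2.61, 5.83 and 10.8 in untreated WT. Replicate 3 was the lowest of the irradiated WT libraries, as it was for each of the 6 Lce3 genes. Lce3e was at 45.97, 56.9 and 57.2 CPM in irradiated DE2, 21.9, 16.97 and 6.38 in irradiated WT, 0, 2.26 and 1.11 in untreated DE2 and 0.871, 0 and 3.33 in untreated WT. Lce3f was at 138, 117 and 134 CPM in irradiated DE2, 34.5, 34.7 and 10.3 in irradiated WT, 0, 2.55 and 2.501 in untreated DE2 and 1.74, 0.699 and 10.01 in untreated WT. These 3 genes had log2 fold changes of 1.63, 1.81 and 2.29 between irradiated DE2 and irradiated WT (edgeR, adjusted p = 0.254, 0.201 and 0.0883). Transcripts of Lce3c to Lce3f share 24.1% to 43.0% of their 100-base windows with other genes, so how their reads were split is uncertain. Between irradiated and untreated DE2 skin all 6 Lce3 genes passed, by 4.25 (Lce3c) to 6.54 (Lce3b) on the log2 scale. In WT the 6 values were 1.61 to 3.37, with 0 past the threshold by edgeR or limma voom, 6 at an unadjusted p under 0.05 by edgeR and 1 called by DESeq2.

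The Lce1 genes, late envelope proteins of the normal outer epidermis, showed the reverse order at the irradiated site. They summed to 998 ± 155 CPM in irradiated DE2, 2094 ± 845 in irradiated WT, 2998 ± 742 in untreated DE2 and 1919 ± 586 in untreated WT (SD, n = 3 each). All 14 had a negative log2 fold change between irradiated DE2 and irradiated WT, with a median of -1.02, and 4 passed. Less the median of all genes, their median was -0.93 relative to basal keratinocyte genes and -0.98 with TMM factors. In 9 of the 14 the 3 DE2 libraries lay below the 3 WT libraries, which held for 9.35% of all genes tested.

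Lce1m (ENSMUSG00000027912, chromosome 3, 93017810 to 93019060, minus strand) was at 34.8, 37.03 and 10.6 CPM in irradiated DE2, 167, 492 and 233 in irradiated WT, 1331, 868 and 851 in untreated DE2 and 698, 436 and 662 in untreated WT. It was the most abundant Lce1 gene of untreated skin per kilobase of exon and was lower in irradiated DE2 than in irradiated WT, with a log2 fold change of -3.42 ± 0.47 (edgeR, adjusted p = 0.00165). Lce1l was at 30.7, 25.4 and 24.8 CPM in irradiated DE2, 89.9, 124 and 60.8 in irradiated WT, 268, 179 and 139 in untreated DE2 and 152, 69.9 and 162 in untreated WT. Its groups did not overlap at the irradiated site, and its log2 fold change was -1.76 ± 0.34 (edgeR, adjusted p = 0.0124). Lce1c was at 94.1, 76.96 and 87.8 CPM in irradiated DE2, 190.4, 350 and 124 in irradiated WT, 385, 286 and 241 in untreated DE2 and 259.9, 131 and 247 in untreated WT. It was just past the threshold, at -1.36 ± 0.34 on the log2 scale (edgeR, adjusted p = 0.0429). Lce1a2 was at 179.8, 144 and 179 CPM in irradiated DE2, 338, 498 and 266 in irradiated WT, 704, 476 and 500.4 in untreated DE2 and 398, 262 and 372 in untreated WT. Its log2 fold change of -1.13 ± 0.25 also passed (edgeR, adjusted p = 0.0258). Lce1j was at 35.6, 22.5 and 37.9 CPM in irradiated DE2, 72.6, 95.4 and 40.1 in irradiated WT, 134, 103 and 74.5 in untreated DE2 and 68.1, 27.3 and 88.2 in untreated WT and had -1.12 ± 0.40 on the log2 scale (edgeR, adjusted p = 0.174). The other 9 Lce1 genes ranged from -1.11 (Lce1h) to -0.33 (Lce1f) and did not pass.

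The Lce1 genes did not move as a block in DE2 mice after UVB. Between irradiated and untreated DE2 skin 8 fell, 1 rose and 5 did not pass. Lce1m fell by 5.19 and Lce1l by 2.85 on the log2 scale (edgeR, adjusted p = 7.54e-06 and 4.48e-05), and Lce1c, Lce1a2, Lce1j, Lce1b, Lce1a1 and Lce1d by 0.95 to 1.82. Lce1g rose by 1.66 ± 0.40 (edgeR, adjusted p = 0.00707), and its neighbours on either side, Lce1f and Lce1h, had 0.74 ± 0.37 and -0.59 ± 0.42 without passing. Relative to basal keratinocyte genes 12 of the 14 were lower and Lce1g no longer passed, but all genes shifted to a median of -1.09. Lce1g stood 1.66 above that median, against 1.64 above the median with TMM factors. Of the 11 basal keratinocyte genes 1 was higher and 3 lower between irradiated and untreated DE2 skin, with a median of -0.05. As a share of all Lce1 counts in a library, Lce1m took 3.16%, 4.52% and 0.984% in irradiated DE2, 8.78%, 16.3% and 17.1% in irradiated WT, 34.5%, 33.0% and 33.9% in untreated DE2 and 31.1%, 35.1% and 29.2% in untreated WT. This share does not depend on how libraries were scaled, and it was lowest in irradiated DE2 and next lowest in irradiated WT. Lce6a, a further Lce gene, had -1.34 ± 0.40 between irradiated genotypes (edgeR, adjusted p = 0.0866) and fell by 1.43 on the log2 scale in DE2 after UVB (adjusted p = 0.0145).

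**Figure D3:**
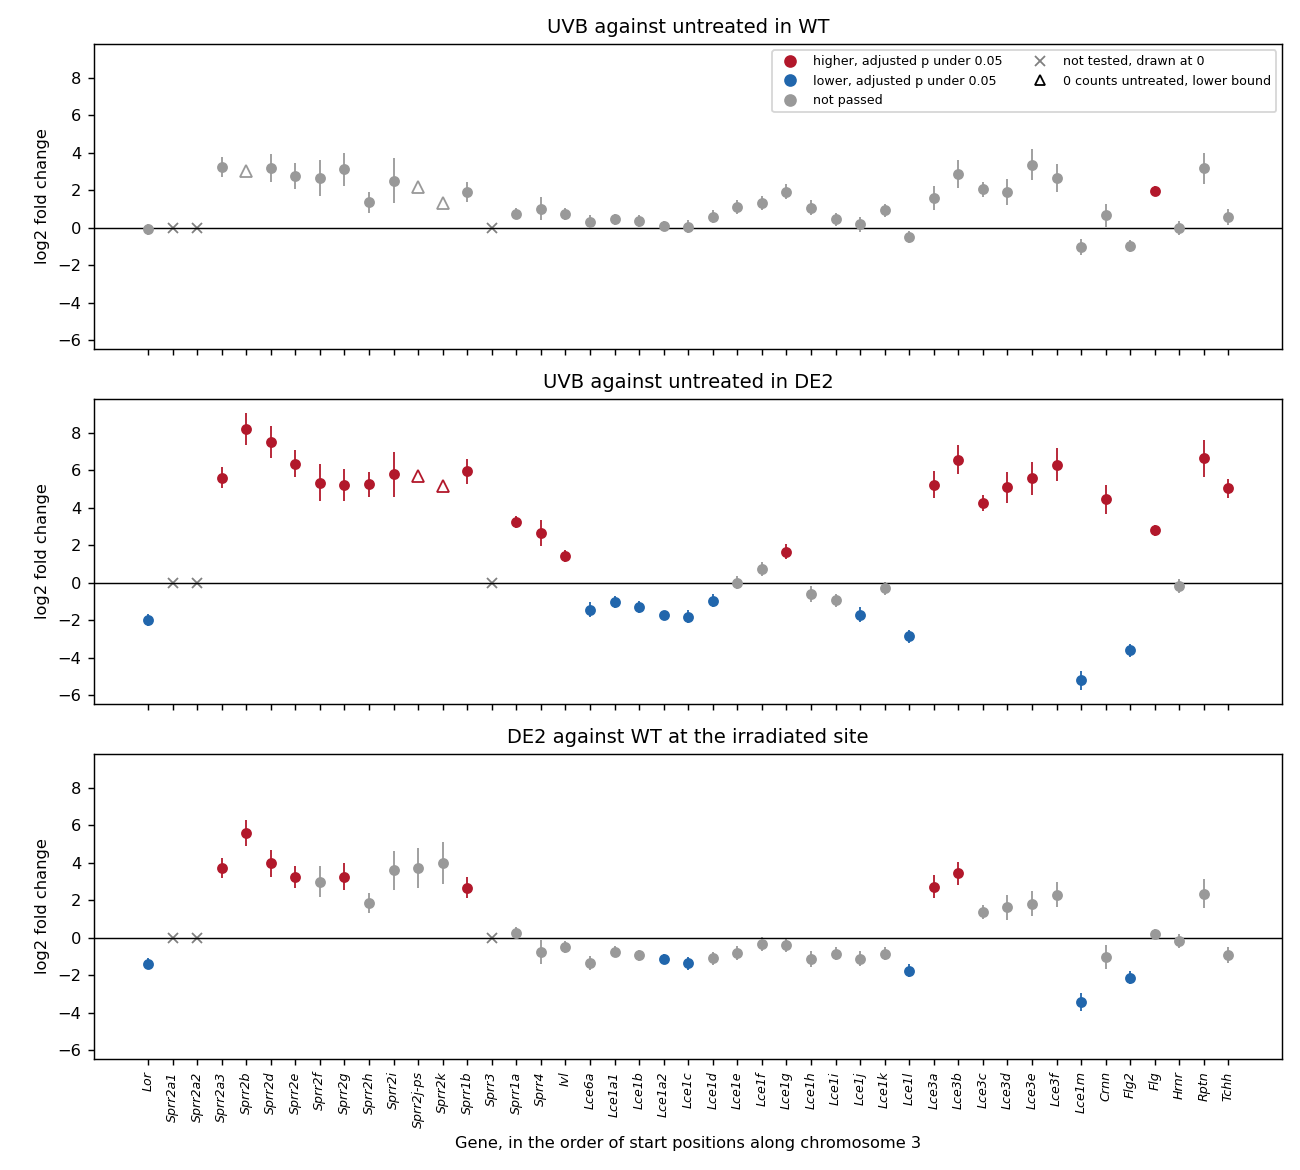
Log2 fold change ± standard error of the 45 genes in their order along chromosome 3, for UVB in WT (top), UVB in DE2 (middle) and DE2 against WT at the irradiated site (bottom). Filled points are tested genes, open triangles are lower bounds for genes with 0 counts in untreated skin, and crosses are genes too low to test, drawn at 0; with TMM factors the Sprr2 and Lce3 runs lie above 0 and most Lce1 genes lie below 0 in the lower 2 panels.

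Counts of the families within a library, which are free of any scaling between libraries, separated the irradiated DE2 libraries as well. Per 100 Lce1 counts there were 55.6, 74.4 and 62.3 Lce3 counts in irradiated DE2, 11, 6.7 and 4.68 in irradiated WT, 0.291, 1 and 0.652 in untreated DE2 and 0.678, 2.44 and 2.54 in untreated WT. Per 100 Lce1 counts there were 214, 363 and 189 Sprr2 counts in irradiated DE2, 12, 11.7 and 7.85 in irradiated WT, 0.683, 2.48 and 0.741 in untreated DE2 and 1.02, 4.24 and 2.51 in untreated WT. The irradiated DE2 libraries did not overlap any other library in either ratio.

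Ranked by mean CPM per kilobase of exon, which allows genes of different length to be set side by side, the leading genes of irradiated DE2 skin were Sprr1a at 1826, Sprr2d at 1310, Sprr1b at 820, Tchh at 356 and Lce3c at 331. In untreated WT skin they were Sprr1a at 899, Lce1m at 631, Lor at 601, Lce1a2 at 481 and Tchh at 451. Sprr2d was 29th of 45 in untreated WT skin, at 8.97 CPM per kilobase, and Lce1m was 37th in irradiated DE2 skin, at 28.9.

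**Figure D4:**
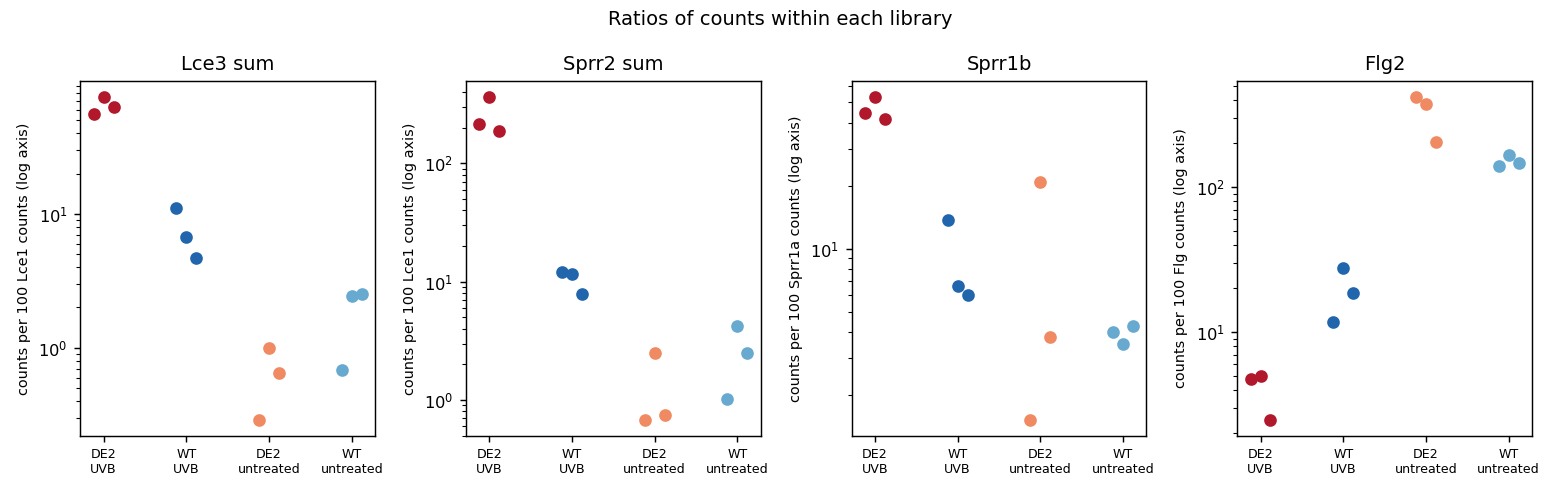
Ratios of counts inside each library (log axes), 1 point per library in 4 groups of 3: Lce3 and Sprr2 counts per 100 Lce1 counts, Sprr1b counts per 100 Sprr1a counts, and Flg2 counts per 100 Flg counts. Irradiated DE2 libraries are the highest in the first 3 panels and the lowest in the last.

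Sprr1a and Sprr1b, which encode small proline-rich proteins best known from squamous differentiation, differed from each other. Sprr1a was at 1557, 1366 and 1493 CPM in irradiated DE2, 1173, 1432 and 1062 in irradiated WT, 224, 122 and 124 in untreated DE2 and 389, 845 and 940.3 in untreated WT. Its irradiated groups overlapped, with 0.27 ± 0.31 on the log2 scale (edgeR, adjusted p = 0.777). Relative to basal keratinocyte genes the value was -1.78, which was 0.32 above the shifted median of all genes, against 0.30 above it with TMM factors. Sprr1b was at 696, 724 and 621 CPM in irradiated DE2, 162, 95.7 and 64.2 in irradiated WT, 3.41, 25.5 and 4.72 in untreated DE2 and 15.7, 29.8 and 40.02 in untreated WT. It was higher in irradiated DE2 than in irradiated WT by 2.66 ± 0.56 on the log2 scale (edgeR, adjusted p = 0.0207). Per 100 Sprr1a counts there were 44.7, 53.0 and 41.6 Sprr1b counts in irradiated DE2 and 13.8, 6.68 and 6.04 in irradiated WT. Between irradiated and untreated DE2 skin Sprr1a was higher by 3.23 ± 0.34 and Sprr1b by 5.94 ± 0.66 (edgeR, adjusted p = 1.04e-05 and 3.22e-05). Sprr4 was at 32.6, 25.6 and 42.3 CPM in irradiated DE2, 52.3, 88.8 and 27.97 in irradiated WT, 2.68, 1.698 and 11.7 in untreated DE2 and 8.93, 48.7 and 26.1 in untreated WT, and Sprr3 had 11 counts in all, each of them in irradiated WT replicate 2.

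Loricrin and involucrin, scaffold proteins of the envelope, also parted. Lor (ENSMUSG00000043165, chromosome 3, 92080271 to 92083142, minus strand) was at 469.8, 286 and 411 CPM in irradiated DE2, 858, 1444 and 735 in irradiated WT, 1978, 1439 and 1236 in untreated DE2 and 1286, 753 and 1167 in untreated WT. It was lower in irradiated DE2 than in irradiated WT, with a log2 fold change of -1.38 ± 0.31 (edgeR, adjusted p = 0.0255) and fell by 2.00 on the same scale at the irradiated against the untreated site of DE2 mice (adjusted p = 0.000382). In WT it had -0.08 ± 0.30 after UVB and did not pass. Ivl was at 187, 136 and 209 CPM in irradiated DE2, 317, 250.2 and 180 in irradiated WT, 90.7, 38.8 and 71.1 in untreated DE2 and 98.8, 180.1 and 171 in untreated WT. Its irradiated groups overlapped, with -0.49 ± 0.31 on the log2 scale (edgeR, adjusted p = 0.517), and it was higher by 1.40 ± 0.32 in irradiated than in untreated DE2 skin (adjusted p = 0.0046).

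Among the S100-fused genes, Flg and Flg2, neighbours that encode filaggrin and its relative filaggrin 2, had different changes after UVB. Flg (ENSMUSG00000102439, chromosome 3, 93273523 to 93293686, plus strand) was at 772, 726 and 1098 CPM in irradiated DE2, 900.2, 858 and 511 in irradiated WT, 135, 98.5 and 142 in untreated DE2 and 224, 135 and 224 in untreated WT. It was higher after UVB in DE2 by 2.79 ± 0.29 and in WT by 1.96 ± 0.28 on the log2 scale (edgeR, adjusted p = 9.47e-06 and 0.0261). The WT call was lost when any 1 of 7 libraries was left out (each irradiated DE2 and each untreated WT library, and irradiated WT replicate 1), with adjusted p-values of 0.00582 to 0.239 over the 12 omissions. Between irradiated DE2 and irradiated WT it had 0.19 ± 0.27 (adjusted p = 0.819). Relative to basal keratinocyte genes the value was -1.86, or 0.25 above the shifted median of all genes, against 0.23 above it with TMM factors.

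Flg2 was at 36.5, 36.3 and 27.3 CPM in irradiated DE2, 105, 236 and 95.8 in irradiated WT, 564, 367 and 289 in untreated DE2 and 311, 226 and 328 in untreated WT. It was lower in irradiated DE2 than in irradiated WT, with a log2 fold change of -2.12 ± 0.34 (edgeR, adjusted p = 0.00392) and fell by 3.60 between irradiated and untreated DE2 skin (adjusted p = 6.67e-06). Per 100 Flg counts there were 4.72, 5 and 2.49 Flg2 counts in irradiated DE2, 11.7, 27.5 and 18.7 in irradiated WT, 417, 373 and 204 in untreated DE2 and 139, 167 and 147 in untreated WT. The 4 groups did not overlap in this ratio. Rptn, which encodes the envelope precursor repetin, was at 596, 624 and 744 CPM in irradiated DE2, 238, 83.9 and 64.5 in irradiated WT, 0, 17.3 and 3.06 in untreated DE2 and 3.701, 22.1 and 16.9 in untreated WT. It was higher by 6.62 ± 0.97 in irradiated than in untreated DE2 skin (edgeR, adjusted p = 0.000313), and between irradiated genotypes it had 2.34 ± 0.77 without passing (adjusted p = 0.137). Its annotated exons overlap Gm37857, which had 32 counts in all. Hrnr, which encodes hornerin, passed in none of the 5 comparisons, with log2 fold changes of -0.16 to -0.03.

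In untreated skin 6 members were lower in DE2 than in WT and 0 higher, against a background of 23.0% of all genes called, 11.8% higher and 11.2% lower. At an unadjusted p under 0.05, 4 members were higher by edgeR, against 18.3% of all genes. After adjustment DESeq2 called 2 higher and limma voom 1, against 13.4% and 12.9% of all genes. The groups did not overlap for 4 higher and 4 lower members, against 39.8% of all genes in either direction, 19.4% higher and 20.4% lower. The 6 called were Tchh, Crnn, Sprr4, Sprr1a, Sprr2h and Ivl. Tchh (ENSMUSG00000052415, chromosome 3, 93442330 to 93449077, plus strand), the inner root sheath protein, was at 2626, 1394 and 2200 CPM in irradiated DE2, 4308, 3740 and 3781 in irradiated WT, 116, 28.3 and 46.4 in untreated DE2 and 1674, 3731 and 2475 in untreated WT. The untreated DE2 libraries were far below every other library, with a log2 fold change against untreated WT of -5.37 ± 0.51 (edgeR, adjusted p = 4.57e-06). Crnn, which encodes cornulin, was at 341, 262 and 311 CPM in irradiated DE2, 626, 713 and 502 in irradiated WT, 35.3, 4.53 and 1.39 in untreated DE2 and 199, 471 and 498 in untreated WT. It followed the same order, at -4.79 ± 0.76 on the log2 scale (edgeR, adjusted p = 0.000728). The log2 fold change was -2.21 ± 0.33 for Sprr1a, -2.38 ± 0.70 for Sprr4, -2.04 ± 0.62 for Sprr2h and -1.16 ± 0.32 for Ivl (edgeR, adjusted p = 0.000277, 0.025, 0.0303 and 0.016). The untreated groups overlapped for Sprr4 and Sprr2h. Of 23 alternatives the call was lost in 5 for Sprr4, in 6 for Sprr2h and in 3 for Ivl, which also reversed in 1. Limma voom called neither Sprr4 nor Sprr2h.

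These genes moved with markers of the hair follicle. Of 12 inner root sheath markers, 11 were lower in untreated DE2 than in untreated WT, and their sum was 334.5 to 994.1 CPM in untreated DE2 and 8380 to 16940 CPM in untreated WT libraries, with Krt74 at 0 in untreated DE2. All 19 tested genes of the hair cortex and cuticle were lower as well. The summed root sheath list was 7669 to 12040 CPM in irradiated DE2 and 19120 to 19890 CPM in irradiated WT, and 0 of its 12 genes passed there by edgeR, while 9 were lower at an unadjusted p under 0.05 and DESeq2 and limma voom each called 2 lower. The part of hair follicles in the values of Tchh, Crnn, Sprr1a, Sprr4, Sprr2h and Ivl was not tested. With the hair cortex list as a covariate 0 of all genes passed in this comparison by edgeR. The same untreated DE2 libraries are the baseline of UVB in DE2, where Tchh was higher by 5.03 ± 0.50 and Crnn by 4.44 ± 0.75 on the log2 scale (edgeR, adjusted p = 6.72e-06 and 0.000861), together with 11 of the 12 root sheath markers and all 19 of the hair cortex and cuticle. Skeletal muscle markers went with them, with 20 of 24 higher in untreated DE2 than in untreated WT and 22 of 24 lower in DE2 after UVB. At the irradiated site 5 of the 19 hair cortex and cuticle genes were lower in DE2, with a sum of 4865 to 11310 CPM in irradiated DE2 and 15000 to 23240 CPM in irradiated WT. With the skeletal muscle list as a covariate 26 of the 36 calls for UVB in DE2 stayed, while 4.91% of all genes were called. In untreated skin 3 of the 6 stayed and Crnn, Sprr2h and Ivl did not, with 2.98% of all genes called. At the irradiated site all 14 stayed, with 4.30% of all genes called. The part of these lists in the calls at the irradiated site and for UVB in DE2 was not tested.

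**Figure D5:**
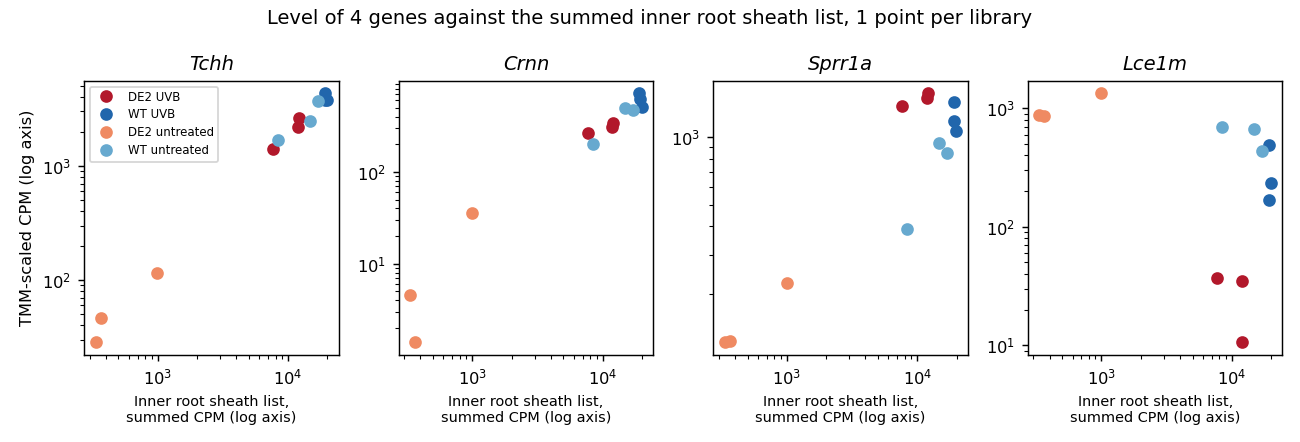
TMM-scaled CPM of Tchh, Crnn, Sprr1a and Lce1m against the summed CPM of 12 inner root sheath markers (both axes log), 1 point per library in 4 groups of 3. The 3 untreated DE2 libraries lie at the low end of the root sheath axis and have the lowest Tchh, Crnn and Sprr1a, whereas the lowest Lce1m values are in irradiated DE2.

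Lce1 and Lce3 genes did not pass between untreated genotypes. Of 14 Lce1 genes 13 had a positive log2 fold change, with a median of 0.55, and relative to basal keratinocyte genes 5 were positive and 9 negative, with a median 0.52 above that of all genes. By edgeR 3 had an unadjusted p under 0.05, and DESeq2 and limma voom each called 1. All 6 Lce3 genes were negative, at -1.55 to -0.24 on the log2 scale, with 0 at an unadjusted p under 0.05 by edgeR, DESeq2 or limma voom. Lce3c passed as lower with total counts and relative to basal keratinocyte genes, where 19.9% and 23.7% of all genes were lower.

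The difference between the UVB effects of DE2 and WT mice was tested as an interaction of genotype and UVB. It passed for 19 members, 10 higher and 9 lower in DE2, against 10.5% of all genes tested, 5.64% higher and 4.84% lower. Higher were Tchh, Sprr2d, Sprr1b, Sprr2h, Crnn, Lce3b, Lce3a, Sprr2e, Sprr1a and Lce3c. Lower were Lce1m, Flg2, Lce1l, Lor, Lce1j, Lce1c, Lce1a2, Lce1b and Lce1a1. The untreated DE2 libraries, which lay low in Tchh, Crnn, Sprr1a and Sprr2h, enter this test. Sprr1b, the Lce3 genes and Lce1m did not pass between untreated genotypes. Sprr1b had -1.36 ± 0.59 and Lce3c -0.83 ± 0.42 there on the log2 scale, and these values enter the interaction too. Both passed as lower with total counts and relative to basal keratinocyte genes, where 19.9% and 23.7% of all genes were lower. With no filter Sprr1b, Lce3c, Lce3d, Lce3f and Lce1m passed, against 13.1% of all genes. With total counts in place of TMM factors 14 were higher and 5 lower, against 8.07% and 2.43% of all genes, whose median was 0.38. Relative to basal keratinocyte genes 5 were higher and 18 lower, against 2.37% and 40.9% of all genes, whose median was -1.39.

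Leaving out 1 library changed the number of calls, which was 14 at the irradiated site with all 12 libraries and 19 for the interaction. Without irradiated DE2 replicate 1, 2 or 3 there were 8, 6 and 7 calls, against 1.34%, 0.828% and 1.70% of all genes. Without irradiated WT replicate 1 there were 9, against 1.35% of all genes. With all 12 libraries 2.96% of all genes were called. Sprr2b, Sprr2a3, Lce3b, Lce1m and Flg2 passed under each of the 12 omissions. For the interaction the count was 11 without irradiated DE2 replicate 2, irradiated DE2 replicate 3 or untreated WT replicate 3. The share of all genes called was then 5.98%, 6.76% and 6.49%, against 10.5% with all 12 libraries.

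The enzymes that join and process the envelope proteins were read from the same fit. Of 17 genes for crosslinking and processing, 2 were higher and 1 lower in irradiated DE2, with a median log2 fold change of 0.40 against -0.03 over all genes. Of all genes tested, 2.35% were higher and 0.608% lower at this site. Tgm5, a transglutaminase, was at 108 ± 21.5 CPM in irradiated DE2 and 33.6 ± 11.5 in irradiated WT (SD, n = 3 each), and Casp14, the caspase that helps break down filaggrin, was at 513 ± 39.2 CPM in irradiated DE2 and 191 ± 60.2 in irradiated WT. Their log2 fold changes were 1.68 ± 0.39 and 1.43 ± 0.29 (edgeR, adjusted p = 0.0315 and 0.0167). St14, the membrane protease matriptase, was lower at 168 ± 5.89 CPM in irradiated DE2 and 314 ± 47.5 in irradiated WT, with a log2 fold change of -0.90 ± 0.19 (edgeR, adjusted p = 0.0178). Of 14 other envelope and corneodesmosome genes 2 were higher, Pglyrp4 at 1.91 ± 0.40 and Krtdap at 1.03 ± 0.26 on the log2 scale, and the median was 0.53. Of 14 genes for envelope lipids 1 was higher, Sdr9c7 at 1.51 ± 0.34, and the median was 0.59. Of 20 transcription factors and other regulators of differentiation 1 was higher, Klf4, a factor needed for the skin barrier, at 0.90 ± 0.21 (edgeR, adjusted p = 0.032), and the median was 0.18.

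After UVB in DE2 the same lists counted 14 higher and 0 lower of 17, 6 higher and 1 lower of 14, 8 higher and 0 lower of 14, and 11 higher and 1 lower of 20, with medians of 1.56, 0.48, 0.97 and 0.91 against 0.02 over all genes. Of all genes tested, 14.4% were higher and 13.4% lower in this comparison. Among the regulators Junb was higher by 2.11 ± 0.27, Fosl2 by 1.52 ± 0.21 and Cebpb by 1.13 ± 0.19 on the log2 scale (edgeR, adjusted p = 7.48e-05, 0.000107 and 0.000561). Junb and Fosl2 are parts of AP-1. In WT after UVB none of the 4 lists had a gene past the threshold by edgeR, DESeq2 or limma voom, and by edgeR 4, 2, 1 and 2 genes had an unadjusted p under 0.05. Of all genes, 2.41% were higher and 2.14% lower at that unadjusted threshold. In untreated skin, DE2 against WT, the counts were 0 higher and 8 lower of 17, 0 and 3 of 14, 0 and 1 of 14, and 1 and 9 of 20, against 11.8% higher and 11.2% lower of all genes. Among the 8 were Padi3, also a root sheath marker, and Tgm3, at -5.37 ± 0.45 and -3.24 ± 0.56 (edgeR, adjusted p = 1.33e-06 and 0.000978).

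Markers of other cell types and states differed at the irradiated site too, where 2.35% of all genes were higher and 0.608% lower in DE2. Of 4 stress keratin genes (Krt6a, Krt6b, Krt16 and Krt17) 3 were higher in irradiated DE2 than in irradiated WT, and their sum was 17090 to 22010 CPM in DE2 and 2647 to 4171 CPM in WT libraries. Of 10 tested neutrophil genes 7 were higher, with a sum of 4650 to 4926 CPM in DE2 and 259 to 510.1 CPM in WT, where Ly6g, Ngp and Ltf were at 0. Of 24 skeletal muscle genes 0 passed by edgeR, DESeq2 or limma voom, and 1 had an unadjusted p under 0.05 by edgeR. The muscle list summed to 32720 to 42360 CPM in irradiated DE2. In irradiated WT its sum was uneven, at 17010 to 79230 CPM, and was highest in replicate 2. Of 11 spinous and granular layer markers 3 were higher and 1 lower, and of 11 basal keratinocyte markers 4 were higher and 1 lower. The part of these shifts in the values of the envelope genes was not tested.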

How the data were processed

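Bulk RNA of skin was sequenced in 12 libraries, 3 in each of 4 groups of genotype and site. The authors deposited raw counts of reads per gene for each library. Per the submitters' processing notes, Trimmomatic 0.39, Picard 3.1.0, SAMtools 1.16, HTSeq 2.0.2 and the GRCm38 build were used; no source used here names the aligner, annotation release or strand setting. Genes were fitted in R 4.3.3 with edgeR 4.0.16 (filterByExpr, TMM factors, robust quasi-likelihood fit, 1 mean per group over all 12 libraries, Benjamini-Hochberg adjustment over 15126 genes, threshold 0.05). Standard errors are the log2 fold change divided by the root of F. DESeq2 1.42.0 and limma 3.58.1 (voom), other scalings, filters, covariates and leaving out each library were alternatives. The fit was tested on simulated data. The genes and all lists were chosen with earlier results of these data known. Full values went to up to 6 higher and 6 lower members with the largest change per comparison, and to Flg, Lor, Ivl, Tchh, Sprr1a, Sprr1b, Sprr3 and the Lce3 genes whatever their p. Replicate numbers follow accession order and pair nothing, and p-values measure the spread between libraries only, which may be technical. Intervals and floors cover counting error only. Promoters came from RefSeq tables of GRCm38.p6.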

Additional observations from a re-analysis of the deposited data

Results flagged for a closer look

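Each result here is a change between untreated and irradiated skin that differed between DE2 and WT mice. A difference between the untreated groups enters it as much as one between the irradiated groups. It was tested as the interaction of genotype and UVB with edgeR's quasi-likelihood test, adjusted over all genes tested. Values are the log2 difference between the UVB effect in DE2 and that in WT, so that a positive one means a higher change in DE2.

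Among the small proline-rich genes the difference was 4.30 ± 1.07 for Sprr2d, 3.57 ± 1.03 for Sprr2e, 3.89 ± 0.82 for Sprr2h, 4.03 ± 0.81 for Sprr1b and 2.48 ± 0.45 for Sprr1a (adjusted p = 0.0219, 0.0412, 0.0103, 0.00755 and 0.00311). Among the Lce3 genes it was 3.61 ± 0.94 for Lce3a, 3.68 ± 1.12 for Lce3b and 2.21 ± 0.56 for Lce3c (adjusted p = 0.0257, 0.0493 and 0.0225). Tchh had 4.44 ± 0.63 and Crnn 3.78 ± 0.95 (edgeR, adjusted p = 0.000486 and 0.0233). Tchh, Crnn, Sprr1a and Sprr2h were lower in untreated DE2 than in untreated WT skin, together with markers of the hair follicle. None of these genes passed between genotypes at the irradiated site. The part of the untreated DE2 libraries in these differences was not tested.

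In the other direction Lce1m had -4.18 ± 0.62, Lce1l -2.37 ± 0.47, Lce1j -1.89 ± 0.56, Lce1c -1.88 ± 0.47, Lce1a2 -1.84 ± 0.36, Lce1b -1.64 ± 0.44 and Lce1a1 -1.48 ± 0.42 (adjusted p = 0.000918, 0.00594, 0.0448, 0.0215, 0.00513, 0.0282 and 0.0378). Flg2 had -2.62 ± 0.47 and Lor -1.92 ± 0.43 (adjusted p = 0.00291 and 0.0122).

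Some of these calls were close to the threshold. With 22 alternatives, among them each library left out, the call was lost in 14 for Lce3b, in 14 for Lce1j, in 9 for Lce3a, in 9 for Lce1c, in 7 for Sprr2d and in 6 for Crnn, which also reversed in 1. Leaving out 1 library gave adjusted p-values of up to 0.309 for Lce3b and 0.116 for Lce1j (edgeR). Lce1a1, Lce1b and Sprr2e, which are not in this list, were unstable too. All of them were lost without irradiated DE2 replicate 2. Lce1a1 and Lce1b were also lost with total counts, Sprr2e with DESeq2 and limma voom, and each in further alternatives.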

How the results depend on the processing

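Counts are of the 42 members tested, or 45 with no filter. For DE2 against WT at the irradiated site, 14 calls became 27 (3 higher and 24 lower) when libraries were scaled to basal keratinocyte genes, where 83.1% of all genes were called and their median was -2.10. They became 32 with no filter (18 and 14; 3.57% of all genes), 23 with limma voom (18 and 5; 3.79%), 24 with only the libraries compared (17 and 7; 4.28%) and 1 with the hair cortex and cuticle list as a covariate (0.357%). For UVB in WT, 1 call became 0 with total counts, 3 with keratinocyte scaling, 22 with no filter (0.488% of all genes), 4 with DESeq2 (0.0704%), 0 with only the libraries compared, 2 with the skeletal muscle covariate, 0 with the hair covariate and 2 without irradiated WT replicate 2 and untreated DE2 replicate 1 together. For UVB in DE2, 36 calls became 0 with the hair covariate, where 3 of the 36 changed sign. With the muscle covariate 26 of the 36 stayed (4.91% of all genes, against 27.8% without it). For DE2 against WT in untreated skin, 6 became 16 with no filter (13.1% of all genes) and 0 with the hair covariate. With the muscle covariate 3 of the 6 stayed and Lce3c newly passed (2.98% of all genes). For the interaction, 19 became 34 with no filter (8.44% of all genes), 6 with the muscle covariate (2.02%) and 0 with the hair covariate. Leaving out 1 library gave 6 to 15 calls at the irradiated site, 0 to 3 for UVB in WT, 33 to 37 for UVB in DE2, 4 to 7 in untreated skin and 11 to 22 for the interaction. In the same order, 0.828% to 3.93%, 0% to 0.0953%, 18.9% to 29.5%, 13.4% to 24.8% and 5.57% to 16.5% of all genes were called.

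With the hair covariate, which was lowest in the 3 untreated DE2 libraries, 0 of all genes were called for UVB in DE2 and in untreated skin. Standard errors were larger: for UVB in DE2 Sprr2d had 12.3 ± 3.14 with the covariate and 7.5 ± 0.87 without it on the log2 scale. With this covariate the value was -1.97 for Ivl and -0.30 for Tchh for UVB in DE2, 0.76 for Tchh, 2.00 for Crnn, 0.49 for Sprr1a and 2.70 for Ivl in untreated skin, and -0.33 for Tchh and -1.42 for Crnn in the interaction. None of these passed. With keratinocyte scaling the value at the irradiated site was -1.86 for Flg and -1.78 for Sprr1a, both above the shifted median of all genes. The cause of the other changes was not tested. Over single members and alternatives, 1824 values kept their side of the threshold, 54 newly passed, 182 no longer passed and 10 reversed. A reversal was counted only where the value passed before or after the change, so some of the 1824 changed sign. Lor for UVB in WT, which passed in no alternative, ran from -0.43 to 0.26 on the log2 scale. No paired analysis was possible because the labels give no replicate numbers. Low counts in untreated skin limit the Sprr2 and Lce3 fold changes.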
